A study of Homo sapiens with 80 samples.

Results

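Glycolysis was followed through 10 enzyme genes, GAPDH and 9 others of the same pathway (HK2, ALDOA, TPI1, PGK1, PGAM1, ENO1, PKM, LDHA and LDHB), in Jurkat T cells exposed to altered gravity or heat. The genes were taken by symbol from a table of 60663 genes, and all 10 passed the filter on low counts in every comparison, so that none was lost. They were chosen for their shared pathway. The question was whether GAPDH, widely used as an internal standard of expression measurements, behaved as the remaining enzymes did.

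Jurkat T cells (clone E6-1, a human T lymphocyte line) were sequenced after depletion of ribosomal RNA, and all groups share this line. In the 9 g experiment, a pipette centrifuge spun the cells, and the group name gives the length of the exposure, which was 20 s in hypg20s, 75 s in hypg75s and 3, 5, 7, 9, 15 or 60 min in hypg3, hypg5, hypg7, hypg9, hypg15 and hypg60. Exposures under 15 min were preceded by 1 g up to a total of 15 min, and the 1 g controls were incubated for as long (Ctrl, 15 min, and Ctrl60, 60 min). The count columns of Ctrl60 name HEPES, while those of Ctrl and hypg60 and the sample titles do not. If HEPES was added to Ctrl60 only, it cannot be told apart from 60 min at 9 g in hypg60. Each group had 6 libraries, of which 5 were used for hypg15. In the second experiment, with 4 libraries per group, a tabletop centrifuge exposed the cells to 300 g during 5 min, and they then waited 1 min (wait1min), 4 min (wait4min) or 15 min (wait15min) before lysis. Other cells were held at 42 °C for 5 min in a water bath (heat). Ctrl300g was not centrifuged but fixed directly, without a handling time of the same length. That time therefore cannot be told apart from centrifugation or heat. Ctrl served as the reference of all 9 g groups but hypg60, Ctrl60 as that of hypg60, and Ctrl300g as that of the waiting and heat groups. Comparisons with the same control group are therefore not independent of each other. A single clone was used, and the labels do not say which libraries came from separate cultures, so that p values measure the spread between libraries, which may be technical.

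Glycolysis breaks glucose down to pyruvate in the cytosol and yields ATP and NADH. Hexokinase (HK2) phosphorylates glucose, aldolase (ALDOA) splits the doubly phosphorylated sugar, and triosephosphate isomerase (TPI1) interconverts the resulting triose phosphates. GAPDH oxidizes the triose and reduces NAD, PGK1 recovers ATP, PGAM1 and enolase (ENO1) rearrange the product, and pyruvate kinase (PKM) forms pyruvate. Lactate dehydrogenase, built from the subunits LDHA and LDHB, converts pyruvate to lactate and back, and activated and leukemic T cells are known for high rates of glycolysis to lactate.

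The genes lie on 8 chromosomes of GRCh38, and the coordinates are those of the annotation used for counting. GAPDH is at chr12:6534512-6538374 on the plus strand, HK2 at chr2:74834127-74893359 (plus), LDHA at chr11:18394560-18408425 (plus) and LDHB at chr12:21635342-21757857 (minus). Read pairs were counted over exons by strand, and a pair that overlaps exons of more than 1 gene on its strand was counted for neither. For 7 of the 10 genes no exon base was shared with another gene, and for PGK1 98.2% of the exon bases were unshared. LDHB and ALDOA differed from these. In the counting annotation each shares exons with another gene on its strand, known by identifier only (ENSG00000285854 for LDHB, ENSG00000285043 for ALDOA), which left 6.49% of the coding bases of LDHB and 7.11% of those of ALDOA unshared. Over all exon bases the unshared part was 66.6% for LDHB and 57.2% for ALDOA. The counts of both genes therefore rest on exon parts that are mostly noncoding, and their values describe those parts.

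The coding bases that could be counted for these genes are printed because the values of LDHB and ALDOA rest on so few of them. LDHB keeps a single stretch of 65 coding bases, at chr12:21635645-21635709 on the minus strand. For ALDOA the longer of 2 stretches has 84 bases, at chr16:30070030-30070113 on the plus strand, between shared exon parts. Both are annotated as coding exon, and no letter is set in capitals.
LDHB: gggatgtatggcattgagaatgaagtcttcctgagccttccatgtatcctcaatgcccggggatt
ALDOA: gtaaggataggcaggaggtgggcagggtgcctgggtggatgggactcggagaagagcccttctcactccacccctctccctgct

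The depth was 22634465 to 41893490 counts in the 59 libraries of the 9 g experiment and 24417717 to 41220541 counts in the 20 libraries of the 300 g and heat experiment. Library 75 of hypg15 was left out throughout, because it held 0 counts of PGK1 where the remaining hypg15 libraries held 27971 to 29626. It also had the fewest counts in all, 17205655. With it kept, no call of a member changed in the comparisons of hypg15 that were fitted in pairs. In a single model of all 9 g groups, 7 enzymes differed from GAPDH in hypg15 without it and 6 with it. The libraries of hypg3 and hypg15 were numbered 69 to 80 and those of all other 9 g groups and their controls 1 to 48, so that the exposure times of 3 min and 15 min cannot be told apart from a separate round of library numbers. T cell markers were expressed (median LCK 1250 CPM and CD3E 554 CPM, and LAT lowest at 7.35 CPM). The B cell marker MS4A1, the red cell gene HBB and the epithelial gene EPCAM had a median of 0. COL1A1 (median 6.18 CPM) and CD14 (0.32 CPM) had counts in every library. Of the 8 markers of other cell types, only PECAM1 exceeded 10 CPM (median 210 CPM). The summed level of the 10 T cell markers ran from 3822 to 3888 CPM in Ctrl300g and from 2737 to 2891 CPM after 300 g, and that of the other markers from 241 to 249 CPM and from 154 to 163 CPM, mostly from PECAM1. The T cell markers moved in both directions, 3 higher (0.47 to 2.21 in wait1min on the log2 scale) and 6 lower (−1.02 to −0.22) at each waiting time. Of all genes tested, 81.5% to 82.3% were called at these times (7104 higher and 6882 lower of 17155 in wait1min). The fall of the sum came mostly from LCK (1279 to 631 CPM in the means of Ctrl300g and wait1min) and CD3E (672 to 376 CPM). The part of the markers in the results was not tested. Values are CPM, counts scaled to a common library size, after TMM scaling, which sets each library so that the typical gene stays level, and every change is therefore relative to the other genes. In such bulk samples, fewer cells of a kind and less RNA per cell cannot be told apart.

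Per length of unshared exon, GAPDH was the most abundant of the enzymes, at 2719 ± 207 CPM per kb (SD, n = 6) in Ctrl. ENO1 followed at 697 ± 60.8, TPI1 at 346 ± 26.5 and PKM at 333 ± 23.2 CPM per kb. LDHA (226 ± 14.5) and PGK1 (225 ± 15.8) were next, and PGAM1 had 161 ± 9.41 CPM per kb. LDHB (35.7 ± 3.22), HK2 (22.5 ± 1.02) and ALDOA (14.8 ± 0.902) were lowest, and for LDHB and ALDOA the value describes the countable exon parts only. TPI1 and PKM, and LDHA and PGK1, lay within each other's SD. Together the 10 genes took 1.70% of all counts in Ctrl, GAPDH alone 0.645%.

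At 9 g, GAPDH was not called at any exposure time. The lowest, median and highest level was 5836, 6521 and 7050 CPM in Ctrl, 6179, 6776 and 7067 CPM in hypg20s, 5883, 6172 and 6826 CPM in hypg75s and 6527, 6743 and 7737 CPM in hypg3. It was 5438, 6135 and 6989 CPM in hypg5, 5376, 6064 and 6711 CPM in hypg7, and 5842, 6100 and 6410 CPM in hypg9. The 5 libraries of hypg15 had 6100, 6344, 6973, 7381 and 7609 CPM, and the values were 5896, 6498 and 6920 CPM in Ctrl60 and 4565, 6251 and 7342 CPM in hypg60. All groups overlapped with their control. The log2 fold changes ran from −0.10 (hypg7) to 0.07 (hypg15), with standard errors between 0.0556 and 0.103 and FDR-adjusted p values between 0.299 and 0.651 (edgeR quasi-likelihood test, Benjamini-Hochberg over all genes tested, called at an adjusted p value under 0.05). The widest 95% interval was that of hypg60, from −0.27 to 0.13. After removal of each library's trend of counts with GC content, GAPDH was instead called lower in 6 of the 8 comparisons, by −0.17 to −0.11. GAPDH lies toward GC-rich genes, with 57.3% GC in its transcripts.

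**Figure D1:**
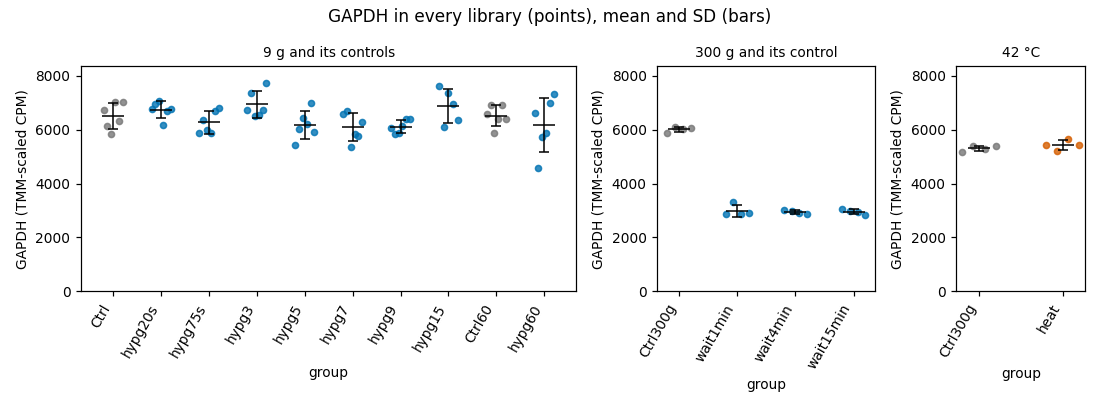
GAPDH level in each library (points, TMM-scaled CPM, y axis from 0) by group (x axis), with the mean and SD as bars, in 3 panels that were scaled separately: 9 g with its controls, 300 g with Ctrl300g, and heat with Ctrl300g. All 9 g groups overlap their control (5836 to 7050 CPM in Ctrl), while the 12 libraries after 300 g lie between 2826 and 3330 CPM, below the 4 of Ctrl300g at 5889 CPM and above.

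HK2 was the enzyme gene called in every comparison at 9 g, and it was lower each time. Its lowest, median and highest level was 124, 133 and 141 CPM in Ctrl, 106, 111 and 116 CPM in hypg20s, 101, 107 and 113 CPM in hypg75s and 86.6, 109 and 116 CPM in hypg3. It was 103.5, 117 and 123 CPM in hypg5, 114, 120 and 121 CPM in hypg7 and 113, 122 and 127 CPM in hypg9. The hypg15 libraries had 109, 112, 112, 117 and 122 CPM, and the values were 135, 137 and 138 CPM in Ctrl60 and 94.5, 116 and 128 CPM in hypg60. In 7 of the 8 comparisons, every exposed library was below every control library, and hypg9 overlapped with Ctrl. The log2 fold changes were −0.27 ± 0.034 (SE) in hypg20s, −0.31 ± 0.0341 in hypg75s, −0.35 ± 0.0563 in hypg3, −0.21 ± 0.0487 in hypg5, −0.17 ± 0.033 in hypg7, −0.14 ± 0.0371 in hypg9, −0.23 ± 0.0449 in hypg15 and −0.23 ± 0.065 in hypg60. Adjusted p values lay between 2.26e-05 (hypg75s) and 0.0202 (hypg5). In the direct comparison hypg9 was higher than hypg75s by 0.17 ± 0.0375 on the log2 scale (adjusted p = 0.0193). With library 75 kept in a single model of all groups, HK2 was not called in hypg9 (adjusted p = 0.0712), and in hypg60 the call was lost with total counts as the scale (−0.19, adjusted p = 0.101).

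LDHB, counted over exon parts that are mostly noncoding, was lower in 4 of the 8 comparisons at 9 g. Its lowest, median and highest level was 63.0, 69.5 and 80.1 CPM in Ctrl, 50.1, 60.4 and 63.5 CPM in hypg75s and 31.7, 53.7 and 63.6 CPM in hypg3. The hypg15 libraries had 32.9, 41.2, 45.6, 48.1 and 57.4 CPM, and the values were 61.8, 74.7 and 81.9 CPM in Ctrl60 and 41.1, 55.3 and 73.2 CPM in hypg60. Only hypg15 was separate from its control. The log2 fold changes were −0.28 ± 0.0683 in hypg75s (adjusted p = 0.00697), −0.50 ± 0.125 in hypg3 (adjusted p = 0.00515), −0.66 ± 0.105 in hypg15 (adjusted p = 0.000132) and −0.40 ± 0.119 in hypg60 (adjusted p = 0.0189). In the remaining comparisons they ran from −0.15 (hypg5) to −0.07 (hypg9) and were not called. The GC correction removed the calls in hypg75s (−0.16, adjusted p = 0.0794) and hypg3 (−0.30, adjusted p = 0.0546), and the scale by total counts that in hypg60 (−0.35, adjusted p = 0.0788). Fitting all 9 g groups in a single model also removed that in hypg75s (−0.29, adjusted p = 0.0786).

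**Figure D2:**
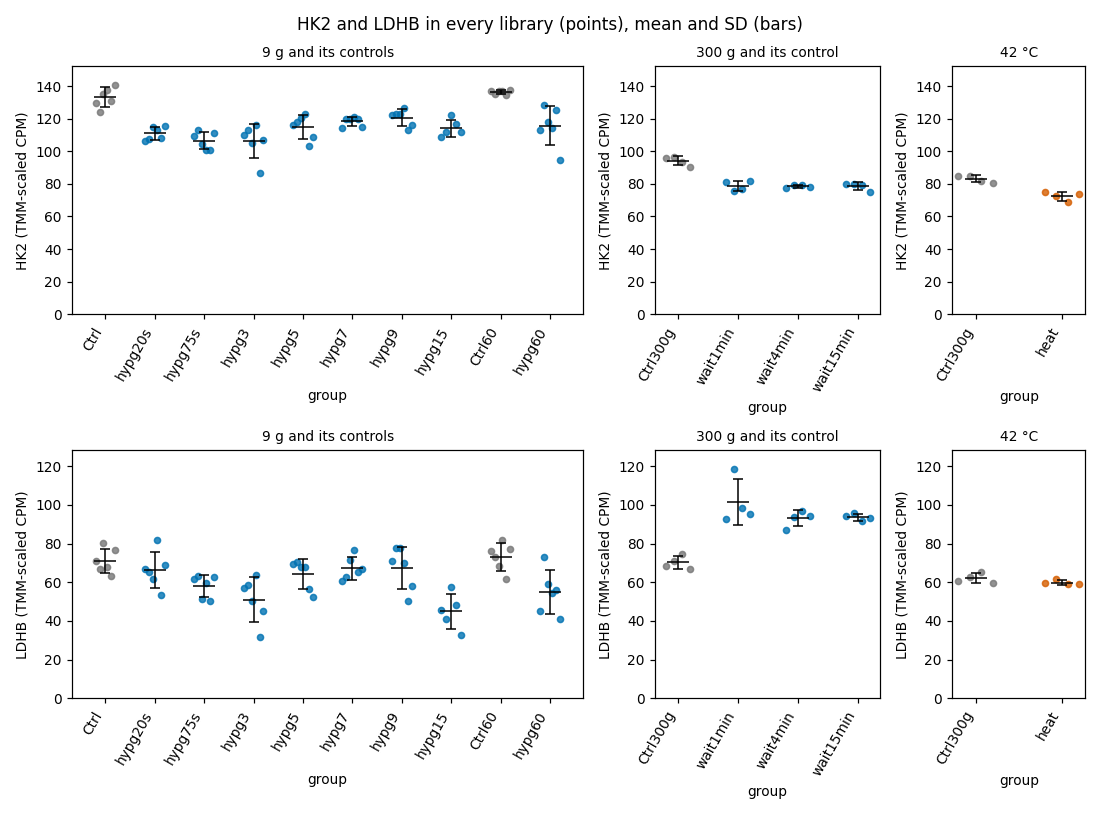
HK2 (top) and LDHB (bottom) in each library (points, TMM-scaled CPM, y axis from 0) by group (x axis), with the mean and SD as bars and 3 separately scaled panels as for GAPDH. HK2 lies below its control at 9 g except for the overlap in hypg9 (up to 127 CPM against 124 CPM and more in Ctrl). LDHB, counted over mostly noncoding exon parts, is lowest in hypg15 (32.9 to 57.4 CPM) and, on this scale, highest after 300 g (87.3 to 119 CPM).

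ALDOA and LDHA were called in fewer comparisons, and the counts of ALDOA rest on mostly noncoding exon parts. ALDOA was 29.9, 32.6 and 34.5 CPM (lowest, median, highest) in Ctrl, 34.0, 36.0 and 40.2 CPM in hypg3, and 36.3, 38.1, 38.6, 39.3 and 41.1 CPM in the libraries of hypg15. It was higher in hypg3 by 0.14 ± 0.049 (adjusted p = 0.0284) and in hypg15 by 0.25 ± 0.0558 (adjusted p = 0.00148), where all exposed libraries were above all of Ctrl. With the GC trend removed both values turned to −0.07 and −0.03 and were not called, so that the direction of ALDOA depended on that choice. LDHA was 1271, 1357 and 1508 CPM in Ctrl and 1109, 1258 and 1332 CPM in hypg3, and the groups overlapped. It was lower in hypg3 by 0.15 ± 0.0509 on the log2 scale (adjusted p = 0.0307), but the call was absent with DESeq2 (adjusted p = 0.0899), and with the GC trend removed the value was 0.00.

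TPI1, PGK1, PGAM1, ENO1 and PKM were not called in any comparison at 9 g. Their log2 fold changes ran from −0.18 ± 0.102 (ENO1, hypg60) to 0.11 ± 0.0751 (PKM, hypg15). Counted together, 1 of the 10 enzymes was called in hypg20s (15.2% of all genes tested), 2 in hypg75s (31.3%), 4 in hypg3 (41.3%) and 1 in hypg5 (6.02%). It was 1 in hypg7 (12.8%), 1 in hypg9 (19.6%), 3 in hypg15 (53.4%) and 2 in hypg60 (30.1%). These shares did not stand above those of all genes, with the exception of hypg5, where the single call was HK2. The median log2 fold change of the 10 enzymes lay between −0.105 (hypg60) and 0.046 (hypg20s), and that of all genes between −0.019 and 0.017. With the GC trend removed, 1 enzyme was called in hypg20s (13.5% of all genes tested in that setting), 6 in hypg75s (25.8%), 7 in hypg3 (33%), 6 in hypg5 (16%), 6 in hypg7 (22%), 5 in hypg9 (28.6%), 6 in hypg15 (42.1%) and 7 in hypg60 (39.6%). In that setting HK2 was lower in 8 of 8 comparisons (−0.41 to −0.16), ENO1 and TPI1 in 7, PKM and PGAM1 in 6, while PGK1 was higher in hypg3 (0.18) and hypg15 (0.21).

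**Figure D3:**
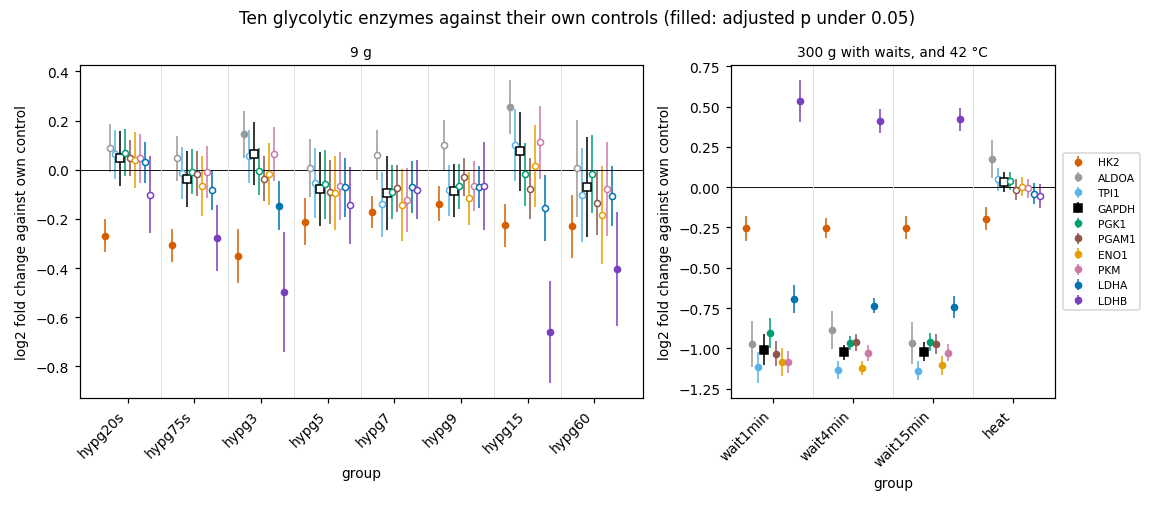
Log2 fold change of each enzyme gene against its own control (y axis) by group (x axis), at 9 g (left) and for 300 g and heat (right), with 95% intervals as bars and filled symbols where the adjusted p value was under 0.05. GAPDH (black squares) is not called at 9 g (−0.10 to 0.07) and falls to −1.02 to −1.01 after 300 g along with 6 of the remaining enzymes, while LDHA (−0.74 to −0.70, but −0.99 to −0.97 and below GAPDH with the GC trend removed), HK2 (−0.26 to −0.25, sign dependent on the scaling) and LDHB (0.41 to 0.53, also dependent on it) lie apart. With the GC trend removed GAPDH falls less and PGK1 further, so that the grouping with the 6 enzymes holds on the TMM scale only. LDHB and ALDOA were counted over mostly noncoding exon parts.

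Each enzyme was next compared with GAPDH directly, by using the GAPDH count of each library in place of its total. This test asks whether a gene's change differed from that of GAPDH, and it does not depend on how library totals were scaled. PKM (−0.03 to 0.04) and TPI1 (−0.05 to 0.03) did not differ from GAPDH in any of the 8 comparisons at 9 g, with standard errors of 0.0154 to 0.0413 for PKM and 0.0184 to 0.0565 for TPI1. In hypg20s only HK2 differed (−0.32 ± 0.0501, adjusted p = 0.00695, 1.16% of all genes called), and in hypg75s again only HK2 (−0.27 ± 0.0536, adjusted p = 0.00534, 18.2% of all genes). In hypg3, 6 of the 9 enzymes were lower relative to GAPDH (32% of all genes called, 25.2% lower). These were LDHB (mostly noncoding exon parts) by −0.57 ± 0.147, HK2 by −0.42 ± 0.0707, LDHA by −0.21 ± 0.0381, PGAM1 by −0.10 ± 0.0282, ENO1 by −0.08 ± 0.0183 and PGK1 by −0.07 ± 0.0238. With the GC trend removed 3 of the 9 differed (18.7% of all genes), and 4 in a single model with library 75 kept (12.9%).

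In hypg15, 4 enzymes were lower relative to GAPDH (38.3% of all genes called, 27.5% lower), LDHB by −0.75 ± 0.107, HK2 by −0.30 ± 0.0683, LDHA by −0.23 ± 0.0425 and PGAM1 by −0.15 ± 0.0408. No enzyme differed from GAPDH in hypg5 or hypg7 by edgeR (6.46% and 8.49% of all genes called). At an unadjusted p value under 0.05 there were 0 and 3 (23.2% and 26.3% of all genes), and with DESeq2 0 and 1 (10.2% and 11.8%). ALDOA was higher in hypg9 (0.18 ± 0.042, adjusted p = 0.0077, 21.2% of all genes called) and ENO1 lower in hypg60 (−0.11 ± 0.0229, adjusted p = 0.00419, 18.1%). The differences of HK2 in hypg20s and hypg75s were not called when all groups were fitted in a single model (adjusted p = 0.12 and 0.0545). Those of PGK1 and LDHA in hypg3 and of LDHA in hypg15 changed sign with the GC trend removed (0.30, 0.13 and 0.21).

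After 300 g, GAPDH was about 1 log2 unit lower than in Ctrl300g, at all waiting times. The libraries of Ctrl300g had 5889, 6031, 6072 and 6096 CPM. Those of wait1min had 2850, 2862, 2919 and 3330 CPM, those of wait4min 2853, 2916, 2982 and 3021 CPM, and those of wait15min 2826, 2960, 2982 and 3042 CPM. All 12 centrifuged libraries were below all 4 controls. The log2 fold change was −1.01 ± 0.0503 in wait1min (adjusted p = 3.28e-12), −1.02 ± 0.0226 in wait4min (adjusted p = 3.92e-20) and −1.02 ± 0.0296 in wait15min (adjusted p = 4.74e-16), which corresponds to between 0.491 and 0.497 of the control level. Only 4.41%, 3.47% and 4.35% of the genes tested had a lower fold change.

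ALDOA, TPI1 and the enzymes from PGK1 to PKM were lower by a similar amount on the TMM scale. With the GC trend removed the amounts were not similar, since GAPDH fell less and PGK1 further. TPI1, which feeds GAPDH with its substrate, had 740, 769, 776 and 793 CPM in Ctrl300g and 330 to 384 CPM in the centrifuged libraries, and its log2 fold changes were −1.12, −1.13 and −1.14 (SE 0.0279 to 0.0484). ENO1 had 2922, 2978, 2989 and 3045 CPM against 1320 to 1524 CPM (−1.08, −1.12 and −1.10), and PKM had 2342, 2369, 2401 and 2435 CPM against 1088 to 1202 CPM (−1.08, −1.03 and −1.03). PGAM1 had 360, 375, 376 and 385 CPM against 176 to 196 CPM (−1.03, −0.96 and −0.97). PGK1, the step after GAPDH, had 1127, 1139, 1147 and 1147 CPM against 557 to 676 CPM (−0.91, −0.97 and −0.96). ALDOA, counted over mostly noncoding exon parts, had 25.5, 26.7, 26.9 and 30.2 CPM against 12.3 to 15.7 CPM (−0.97, −0.89 and −0.97). In each of these 6 genes every centrifuged library was below every control library, and the adjusted p values were between 1.63e-20 and 9.84e-10.

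On the TMM scale LDHA fell less than GAPDH, from 1150, 1162, 1172 and 1245 CPM to between 661 and 785 CPM in the centrifuged libraries. Its log2 fold changes were −0.70 ± 0.0443, −0.73 ± 0.0248 and −0.74 ± 0.0351 in wait1min, wait4min and wait15min. With the GC trend removed this order was the opposite, with LDHA at −0.97, −0.99 and −0.99 and −0.61 to −0.58 lower than GAPDH. HK2 had 90.5, 93.5, 96.0 and 96.4 CPM in Ctrl300g, 75.3, 76.5, 81.2 and 81.7 CPM in wait1min, 77.4, 77.9, 79.3 and 79.4 CPM in wait4min and 75.2, 79.0, 80.0 and 80.0 CPM in wait15min. The groups did not overlap and the log2 fold changes were −0.26, −0.25 and −0.25 (adjusted p = 1.23e-05, 2.1e-07 and 3.4e-06), but its direction depended on the scaling, with −0.01, 0.01 and 0.01 by total counts and 0.10, 0.09 and 0.09 with the GC trend removed. LDHB, the second lactate dehydrogenase subunit, had 66.7, 68.6, 71.2 and 74.8 CPM in Ctrl300g, 92.9, 95.5, 98.5 and 119 CPM in wait1min, 87.3, 93.8, 94.2 and 97.0 CPM in wait4min and 91.6, 93.0, 94.1 and 95.7 CPM in wait15min. Here all centrifuged libraries were above the controls, by 0.53 ± 0.0665, 0.41 ± 0.0389 and 0.42 ± 0.0377 on the log2 scale (adjusted p = 9.13e-07, 2.24e-09 and 5.73e-09). With the GC trend removed LDHB was at 0.08, −0.02 and −0.01 and not called. All these LDHB values describe mostly noncoding exon parts.

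All 10 enzymes were thus called at each waiting time, 9 lower and 1 higher (9 called with the GC trend removed, without LDHB, and 9 with total counts, without HK2), in comparisons in which 81.5%, 82.2% and 82.3% of all genes were called, 40.1%, 40.6% and 40.5% lower and 41.4%, 41.7% and 41.8% higher. Their median log2 fold change was −0.990, −0.965 and −0.969, where that of all genes was 0.006, 0.009 and 0.010. Most abundant genes fell as well. Among genes of at least 1000 CPM (78, 76 and 73 genes), 82.1%, 89.5% and 89.0% were lower, with a median of −0.81, −0.85 and −0.88, and 28.2%, 27.6% and 30.1% of them had a lower fold change than GAPDH. The 10 enzymes together took 1.31% of all counts in Ctrl300g and 0.786%, 0.785% and 0.790% in wait1min, wait4min and wait15min.

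The size of the fall depended on the scale. With total counts, the median of all genes moved to 0.25, 0.27 and 0.27, the share of higher genes among the called rose from 50.6–50.8% to 62.0–63.0%, and GAPDH was at −0.76, −0.77 and −0.76. With the GC trend removed, the median of all genes was 0.14, 0.13 and 0.13, 61.5–62.0% of the called genes were higher, and GAPDH was at −0.35, −0.40 and −0.39. GAPDH and the 7 enzymes ALDOA, TPI1, PGK1, PGAM1, ENO1, PKM and LDHA were called lower at each waiting time under all scalings and tests run. The order among them was not stable, since PGK1 was at −1.31, −1.35 and −1.34 with the GC trend removed. Its transcripts have 43.9% GC, against 57.3% for those of GAPDH.

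Relative to GAPDH, PKM did not differ at any waiting time (−0.07 ± 0.0472, −0.00 ± 0.0173 and −0.01 ± 0.0186, adjusted p = 0.154, 0.83 and 0.729), where 86.1%, 90.5% and 89.4% of all genes did and 85.5%, 89.6% and 88% were higher. TPI1 was slightly lower than GAPDH (−0.11, −0.11 and −0.12). ENO1 differed by −0.07, −0.10 and −0.08 (called at 4 min and 15 min), PGK1 by 0.10, 0.06 and 0.06 (called at all), PGAM1 by −0.02, 0.06 and 0.05 and ALDOA by 0.04, 0.14 and 0.05 (each called at 4 min only), and several of these calls were lost when 1 library was left out. LDHA, HK2 and LDHB, the last counted over mostly noncoding exon parts, stood further off and were called at each waiting time. LDHA was higher relative to GAPDH, except with a trend removed, by 0.31 ± 0.0467, 0.29 ± 0.026 and 0.28 ± 0.0267, HK2 by 0.76 ± 0.0702, 0.77 ± 0.0375 and 0.77 ± 0.0364, and LDHB by 1.53 ± 0.0652, 1.44 ± 0.0488 and 1.44 ± 0.0421. In all, 5, 8 and 6 of the 9 enzymes differed from GAPDH.

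The differences of HK2 and LDHB from GAPDH were called under every alternative run, at 0.42 to 0.50 for HK2 and 0.39 to 1.49 for LDHB with the GC or the exon length trend removed. The sign was not stable for PGK1 (−0.96 to −0.94 with the GC trend removed) and LDHA (−0.61 to −0.58). PKM was −0.66 to −0.59 lower than GAPDH with the exon length trend removed. Of the 8 fits that each left out 1 library, PGK1 was lost in 7 and TPI1 in 6 in wait1min, ALDOA and PGAM1 in 5 each and PGK1 in 3 in wait4min, and PGK1 in 2 in wait15min. The number of enzymes that differed fell from 5 to 3 in wait1min without any 1 of libraries 49 to 53 or 55, and from 8 to between 5 and 7 in wait4min without any 1 library but 58.

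**Figure D4:**
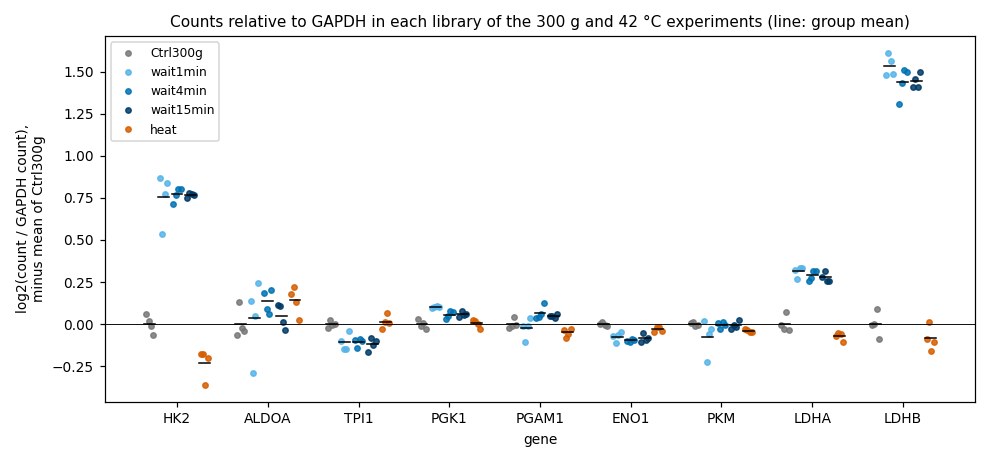
Log2 ratio of each enzyme's count to the GAPDH count of the same library, minus the mean of Ctrl300g (y axis), for each library (points, lines at group means) by gene (x axis). PKM, ENO1, PGAM1 and TPI1 have means of −0.12 to 0.06 after 300 g, whereas LDHA (means 0.28 to 0.31, negative with the GC trend removed), HK2 (0.75 to 0.77) and LDHB (1.44 to 1.54) lie above all Ctrl300g libraries, and heat lies below Ctrl300g for HK2 (−0.23). LDHB and ALDOA were counted over mostly noncoding exon parts.

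The longest and the shortest waiting time were compared directly. Between wait15min and wait1min, edgeR called 0 of the 10 enzymes (0.149% of all genes), 0 at an unadjusted p value under 0.05 (12.6%) and 0 with DESeq2 (0.253%), and GAPDH differed by −0.01 ± 0.045. The same counts of 0, 0 and 0 were obtained between Ctrl60 and Ctrl, where 0.0124%, 3.59% and 0.059% of all genes passed and GAPDH differed by −0.01 ± 0.062, and between hypg15 and hypg3, where 2.54%, 16.9% and 3.58% passed and GAPDH differed by −0.02 ± 0.078. Between hypg9 and hypg75s, HK2 was the 1 enzyme called, and 5% of all genes were.

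Heating to 42 °C left GAPDH at 5222, 5422, 5444 and 5661 CPM against 5191, 5271, 5378 and 5411 CPM in Ctrl300g, which was scaled anew with the heat libraries and therefore has other values than above. The groups overlapped, and the log2 fold change was 0.03 ± 0.0311 (adjusted p = 0.504). HK2 was lower in every heated library, at 68.8, 72.3, 73.8 and 74.8 CPM against 80.7, 81.7, 84.6 and 85.04 CPM (−0.20 ± 0.0364, adjusted p = 0.00105). ALDOA had 25.1, 27.6, 27.8 and 28.1 CPM against 22.4, 23.5, 23.8 and 26.6 CPM, with overlap, and was higher by 0.17 ± 0.0595 (adjusted p = 0.0478). This second call was absent with DESeq2 (adjusted p = 0.0903) and when any 1 of 6 of the 8 libraries was left out (0.14 to 0.17). Thus 2 of the 10 enzymes were called (20.8% of all genes), and with total counts as the scale 65.8% instead of 51.1% of the called genes were higher. The remaining 7 ran from −0.05 (LDHB) to 0.05 (TPI1) and were not called. Relative to GAPDH, HK2 was the 1 enzyme called (−0.23 ± 0.0463, adjusted p = 0.00331, 19.1% of all genes).

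Over the 59 libraries at 9 g, the genes whose deviations from the own control followed GAPDH most closely included TKT (r = 0.984), EEF2 (0.982), WDR1 (0.970) and CAPNS1 (0.970). The median over all 8499 genes of at least 10 CPM was 0.152. PKM was the 10th gene by this measure (0.967), ENO1 the 34th (0.952), TPI1 the 125th (0.928) and PGK1 the 387th (0.883). PGAM1, ALDOA and LDHA ranked 1032, 1372 and 2809, and HK2 (−0.18) and LDHB (−0.34) were negative. Over the 20 libraries of the 300 g and heat experiment the closest of 9594 genes included RPS3, RACK1, ENO1 and CCT3 (each 0.999), where the median was 0.539. PGK1 ranked 15, TPI1 34, PGAM1 245, PKM 334, LDHA 644 and ALDOA 2595, and HK2 was at 0.53 and LDHB at −0.91. After subtraction of each group's own mean, so that shifts between groups no longer count, these values were different, with PGK1 at 0.95, ENO1 at 0.96, TPI1 at 0.85, LDHA at 0.84, PGAM1 at 0.81, PKM at 0.63, LDHB at 0.58, ALDOA at −0.06 and HK2 at −0.20 (median of all genes 0.17). At 9 g the same step left HK2 (−0.23) and LDHB (−0.32) negative and the remaining 7 positive (0.71 to 0.98). These correlations are descriptions, since the libraries share controls, scaling and depth.

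The remaining genes of glucose breakdown were counted from lists. Their values and those of the PCR standards are on the TMM scale, and the other scalings were not applied to them. At the waiting times 41.4% to 41.8% of all genes were higher and 40.1% to 40.6% lower, at 9 g 4.33% to 25.4% were higher and 1.69% to 27.9% lower, and after heat 10.6% were higher and 10.2% lower. Of 20 other glycolytic enzyme genes, 13 were tested at 300 g. In wait1min 2 were higher and 10 lower (41.4% and 40.1% of all genes), with a median of −0.61, and in wait4min and wait15min 2 were higher and 9 lower (41.7% and 40.6%, and 41.8% and 40.5% of all genes), with medians of −0.55 and −0.53. The 4 largest changes among called genes of at least 10 CPM in wait1min were GPI, the isomerase of the second step (−1.02 ± 0.036), PFKP, a phosphofructokinase (−0.95 ± 0.0384), HK1 (−0.95 ± 0.0405) and the aldolase ALDOC (−0.86 ± 0.0678). In the 9 g comparisons from hypg20s to hypg60, 0, 2, 1, 0, 0, 1, 3 and 1 of these genes were higher, where 6.66%, 16.8%, 16.9%, 4.33%, 6.64%, 11.3%, 25.4% and 17.1% of all genes were, and 0 or 1 lower. The 3 higher in hypg15 were ENO3 (0.56 ± 0.0786), PFKL (0.17 ± 0.054) and GPI (0.15 ± 0.0586). After heat, where 20.8% of all genes were called, ENO3, an enolase of muscle, was the 1 gene called (0.78 ± 0.0688, from 13.5 ± 0.971 to 23.2 ± 1.72 CPM).

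Genes of glucose and lactate transport and of the regulation of pyruvate oxidation (18 tested) gave 3, 7, 10, 2, 5, 5, 9 and 6 lower genes in the 9 g comparisons from hypg20s to hypg60, where 8.58%, 14.4%, 24.4%, 1.69%, 6.19%, 8.34%, 27.9% and 13% of all genes were lower, and 5 higher ones in hypg15, where 25.4% of all genes were higher. In hypg15, PDK1, a kinase that shuts off pyruvate dehydrogenase, was lower by −0.62 ± 0.0668, the lactate transporter SLC16A1 by −0.61 ± 0.0533, PDK3 by −0.50 ± 0.126 and DLAT, a subunit of pyruvate dehydrogenase, by −0.46 ± 0.0666. At 300 g 7 were higher and 10 lower in wait1min, 7 and 11 in wait4min and 6 and 11 in wait15min, and all genes were divided about evenly as well (41.4% to 41.8% higher, 40.1% to 40.6% lower). PDK3 (1.63 ± 0.0443) and PDK1 (0.82 ± 0.0425) were higher in wait4min, and BSG, the partner of the lactate transporters (−1.04 ± 0.031), and PDK2 (−0.87 ± 0.0467) lower. After heat, PFKFB3 (−0.18 ± 0.0358), PDK3 (−0.20 ± 0.056) and PDHA1 (−0.14 ± 0.0392) were lower and the glucose transporter SLC2A1 higher (0.12 ± 0.0344). Of the 8 genes of the pentose phosphate pathway, which branches off from glucose 6-phosphate, 7 were lower and 1 higher at each waiting time, against 40.1% to 40.6% and 41.4% to 41.8% of all genes. In wait1min these included TKT (−1.06 ± 0.0363), PGLS (−1.02 ± 0.0477) and PGD (−1.02 ± 0.0362), and RPE was the higher one (1.89 ± 0.0583). At 9 g, 0 to 2 of the 8 were higher and 0 to 2 lower. In hypg3, where 16.9% of all genes were higher and 24.4% lower, these were RPE (−0.40 ± 0.143) and RPIA (−0.26 ± 0.0406) lower and H6PD (0.15 ± 0.0384) and PGLS (0.12 ± 0.0453) higher. After heat H6PD (−0.16 ± 0.0326) and RPIA (−0.11 ± 0.0358) were lower (10.2% of all genes).

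GAPDH was also set beside 12 further genes that serve as standards in PCR, of which 10 are described by name. After 300 g, ACTB (−1.05, −0.98 and −1.004 in wait1min, wait4min and wait15min) and RPLP0 (−1.04, −1.08 and −1.06) had values beside those of GAPDH. PPIA (−0.57, −0.65 and −0.65) fell less, and GUSB (−0.38, −0.38 and −0.35) and SDHA (−0.37, −0.33 and −0.34) less still. TBP (−0.15, −0.10 and −0.13) was called in wait1min and wait15min, YWHAZ (−0.09, −0.13 and −0.14) in wait4min and wait15min and TFRC (0.12, 0.05 and 0.07) in wait1min and wait15min. HPRT1 was higher (0.39, 0.33 and 0.38), and B2M was not called (0.12, −0.00 and −0.02). Counted together, 2, 1 and 2 of the 12 were higher and 8, 8 and 9 lower, where 41.4%, 41.7% and 41.8% of all genes were higher and 40.1%, 40.6% and 40.5% lower, with a median of −0.374, −0.352 and −0.345. At 9 g, 0 to 2 were higher (4.33% to 25.4% of all genes) and 0 to 5 lower (1.69% to 27.9%), and after heat, where 10.6% of all genes were higher and 10.2% lower, 3 were higher (among them GUSB, 0.27) and 3 lower (TBP −0.30, YWHAZ −0.15 and ACTB −0.10).

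**Figure D5:**
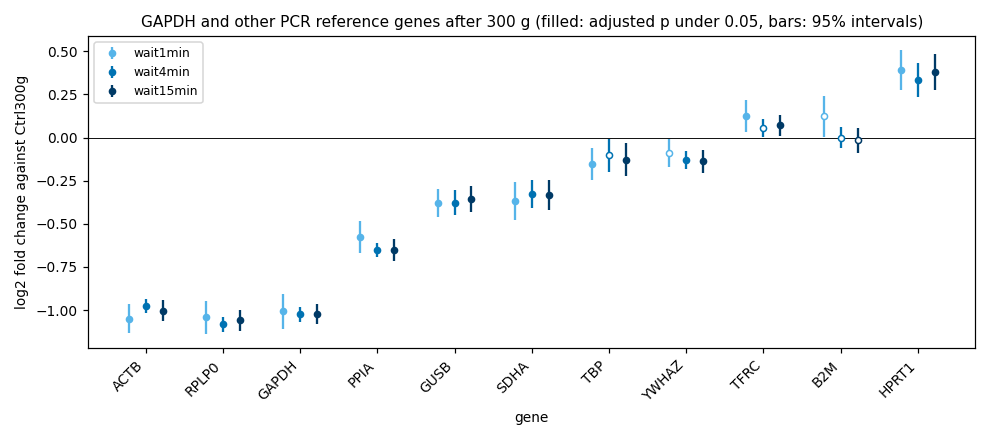
Log2 fold change against Ctrl300g (y axis) of GAPDH and 10 other PCR standards (x axis) at the 3 waiting times after 300 g, with 95% intervals as bars and filled symbols where the adjusted p value was under 0.05. ACTB and RPLP0 lie beside GAPDH at −1.08 to −0.98, and HPRT1 is above 0 (0.33 to 0.39).

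Reads can be shared with near-identical pseudogenes. The 65 GAPDH pseudogenes of the table, of which 33 had any count, held 0.0677% to 0.239% of the counts of GAPDH and its copies together. The largest share of copies was 3.35% for PGAM1 and 1.40% for TPI1, and it rose after 300 g from a median of 0.886% to 2.54% for PGAM1 and from 0.651% to 1.06% for TPI1. ENSG00000285043, which overlaps ALDOA, held 74 to 230 counts per library, and reads shared by both were not counted for either.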

How the data were processed

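The submitters' processing notes name Trim Galore 0.6.5, STAR 2.7.3a, featureCounts 2.0.1 and DESeq2 1.28.1, and per the file headers featureCounts 2.0.3 wrote the table. The authors deposited raw counts of read pairs per gene over exons of GRCh38, without normalization, and an exon length in bases. The table holds 60663 usable genes. Library preparation was directional, without molecular identifiers.

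Here, edgeR 4.0.16 (R 4.3.3, limma 3.58.1) tested each pair of groups in its own model with TMM scaling, filterByExpr (minimum count 10) and Benjamini-Hochberg adjustment over all genes tested, and called genes at an adjusted p under 0.05. A second test used the GAPDH count as the library size. Printed CPM were scaled within 9 g, within 300 g and within heat with Ctrl300g. Symbols, coding bases and the GC content of transcripts came from GENCODE v29, an annotation other than the one used for counting. Gene coordinates and exon overlaps came from the counting annotation. Printed standard errors derive from the F statistic. Methods were tested on simulated data. Alternatives were RLE factors, total counts, DESeq2 1.42.0, no filter, a single model per experiment, GC or exon length trends removed (lowess, span 0.3, prior count 2), and leaving out libraries. Named genes were all members, the PCR standards, up to 4 genes per further list by size of change, and the 5 genes most like GAPDH. Some genes that this rule names are not reported here. The members, lists and tests were chosen with earlier results of these data known. Groups follow the sample titles, although columns of Ctrl60 mention HEPES, those of wait1min say instant and those of wait4min name 1 min. Counts of reads without molecular identifiers are not independent molecules. Python 3.11.15, numpy 2.4.6, pandas 2.3.3 and matplotlib 3.10.9 were used.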

Additional observations from a re-analysis of the deposited data

Results flagged for a closer look

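Among 150 pairs of a gene and a group, 6 held a library far from the rest of its group (its gap to the nearest library exceeded Dixon's 95% limit), where chance gives about 1 in 20. In wait1min, library 54 was highest for GAPDH, at 3330 CPM against 2850 to 2919 CPM, and for PGK1, at 675.9 CPM against 576.9 to 592.7 CPM. In wait4min, library 60 was lowest for PGK1, at 567.7 CPM against 581.5 to 583.9 CPM. For PGAM1, library 9 of Ctrl60 was lowest at 358 CPM against 408.9 to 430.9 CPM, and library 40 of hypg9 was highest at 422 CPM against 389.8 to 401.7 CPM. For HK2, library 73 of hypg3 was lowest at 86.64 CPM against 105.1 to 116 CPM, and the remaining 5 libraries of that group were also below all of Ctrl.

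The change of HK2 differed between exposure times, with hypg9 higher than hypg75s by 0.171 on the log2 scale (edgeR quasi-likelihood test of the direct comparison, adjusted p = 0.0193). In the single model with library 75 kept this call was lost (0.17, adjusted p = 0.0724).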

How the results depend on the processing

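No paired analysis was possible because library numbers are unique and no 2 groups share one. Relative to the TMM scaling, DESeq2, RLE factors, no filter, a single model, the exon length trend and leaving out a library reversed no fold change of an enzyme that was called before or after the change (157 of 160, 158 of 160, 157 of 160, 154 of 160, 157 of 160 and 610 of 620 results kept their call or lack of it), and keeping library 75 changed 0 of 20. Libraries were left out in turn for hypg15, the waiting times, heat, hypg15 against hypg3 and wait15min against wait1min only, where a group had at most 5 libraries, and not in the other 7 comparisons of 9 g with a control. Fold changes near 0 that were not called could cross 0, such as ENO1 in hypg15 (−0.021 to 0.074 when 1 library was left out). Depth limits ALDOA most after 300 g, where its libraries held 333 to 468 counts. The causes of the changes given next were not tested.

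With the GC trend removed, the fold change turned in hypg3 for GAPDH (−0.12), PGK1 (0.18), LDHA (0.00095), ALDOA (−0.072), PKM (−0.11) and TPI1 (−0.12), in hypg15 for PGK1 (0.21), ENO1 (−0.18), ALDOA (−0.030) and TPI1 (−0.13), and after 300 g for HK2 (0.10, 0.087 and 0.090 in wait1min, wait4min and wait15min) and LDHB (−0.021 in wait4min and −0.010 in wait15min). With total counts HK2 turned in wait4min (0.0053) and wait15min (0.0099). The number of enzymes called became 9 instead of 10 at each waiting time with the GC trend removed or with total counts. All counts that changed by more than 1.5 times follow, with the share of all genes called in the same setting, and 20 changed by less. Removal of the GC trend gave 6 in hypg75s (25.8%), 7 in hypg3 (33.0%), 6 in hypg5 (16.0%), 6 in hypg7 (22.0%), 5 in hypg9 (28.6%), 6 in hypg15 (42.1%), 7 in hypg60 (39.6%) and 1 after heat (25.4%). It became 1 in hypg75s in a single model (21.4%), 1 in hypg75s (12.4%), 0 in hypg9 (9.37%) and 0 between hypg9 and hypg75s (1.97%) in a single model with library 75, 2 in hypg9 (21.0%) and 0 in hypg60 (29.6%) with total counts, and 1 after heat with DESeq2 (15.1%), no filter (11.9%) or RLE factors (20.9%).

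For differences from GAPDH with the GC trend removed, LDHA turned in hypg20s (0.15), hypg75s (0.16), hypg3 (0.13), hypg15 (0.21), hypg60 (0.17), wait1min (−0.61), wait4min (−0.58) and wait15min (−0.60), PGK1 in hypg3 (0.30), hypg15 (0.40), wait1min (−0.96), wait4min (−0.94) and wait15min (−0.94), and PGAM1 in wait4min (−0.049) and wait15min (−0.067). With the exon length trend removed, PGK1 turned in hypg3 (0.0059), wait1min (−0.19), wait4min (−0.24) and wait15min (−0.25), LDHA in wait1min (−0.029), wait4min (−0.056) and wait15min (−0.078), and ALDOA in wait4min (−0.013). The number that differed from GAPDH changed by more than 1.5 times in the settings given next and by less in 16 others. Removal of the GC trend gave 3 in hypg20s, hypg75s, hypg3, hypg9 and hypg60 (7.14%, 34.1%, 18.7%, 40.0% and 37.7% of all genes), 1 in hypg7 (21.7%) and 8 in wait1min (75.4%). In a single model it became 0 in hypg20s (0.608%) and hypg75s (12.3%), 1 in hypg7 (10.9%), 7 in hypg15 (40.7%) and 5 in wait4min (88.4%), and with library 75 kept as well 0, 0 and 1 in hypg20s, hypg75s and hypg7 (0.331%, 7.48% and 6.85%). It was 1 in hypg5 (19.1%) and hypg7 (18.6%) and 3 after heat (21.7%) with the exon length trend removed, 1 in hypg7 with DESeq2 (11.8%), and 3 in wait1min (54.1%) and 5 in wait4min (57.1%) without the filter.

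Leaving out 1 library at a time gave 10 to 10 enzymes called at each waiting time, 1 to 2 after heat and 3 to 5 in hypg15, where 5 were called without library 77. The number that differed from GAPDH ran from 3 to 6 in wait1min, 5 to 8 in wait4min, 5 to 7 in wait15min, 4 to 5 in hypg15 and 1 to 1 after heat.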
